A study of Mus musculus with 12 samples.

Results

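The immunoglobulin variable segments of mouse bone marrow are described here across 4 treatment days, with 2 segments set apart. Of the 23134 genes in the table, 238 are variable segments of the heavy chain (Ighv), kappa (Igkv) or lambda (Iglv) loci. Igkv4-91 and Ighv1-15 were left out by rule, and 171 of the other segments had 10 or more normalised counts in at least 3 of the 12 samples. These 171 members are 90 heavy chain, 78 kappa and 3 lambda segments. All samples were total bone marrow of C57BL/6 mice that carried Vk12653 myeloma cells, a transplantable line of the Vk*MYC mouse model, given by the intravenous route. The untreated group (day 0, 3 samples) was taken 10 days after the myeloma cells. The treated groups (3 samples each) received 10 µg of the anti-CD137 antibody 3H3 by intraperitoneal injection on 2 occasions a week and were taken at days 4, 11 and 18 of treatment, which are 14, 21 and 28 days after the myeloma cells. Time since the myeloma cells and time on treatment therefore cannot be told apart. The hosts keep their own B cells, and the labels give neither the age of the mice nor whether each sample was 1 mouse, so p-values measure the spread between these samples.

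Each developing B cell joins 1 variable segment to diversity and joining segments at the heavy chain locus, and 1 variable segment to a joining segment at a light chain locus. The joined segment is then transcribed with a constant region, and plasma cells, which secrete antibody, hold far more of this RNA than resting B cells. A diverse B lineage therefore spreads its transcripts over many segments, while a single clone puts its own into 1 heavy and 1 light chain segment. CD137 (Tnfrsf9) is a costimulatory receptor best known on activated T and natural killer cells.

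The sequences of 3 sets of near relatives are shown because most of the 20 calls that held in every alternative fit lie in Ighv14-3, Igkv17-127, Igkv17-121, Igkv1-117 and Igkv1-110, and because reads of near relatives are hard to tell apart. They were chosen after their values were seen. Each is the last 300 bases of the annotated coding sequence in GENCODE release M21 on build GRCm38, printed 5′ to 3′ on the coding strand, which leaves out the start of the leader. Capitals mark the bases that differ from the first sequence of the set, which is all in lower case. The Ighv14 set lies on chromosome 12, minus strand, with Ighv14-3 at chr12:114059845-114060321, and the other members differ from it at 13, 15 and 17 of 351 coding bases, of which 12, 13 and 15 are in the stretch shown.
Ighv14-3: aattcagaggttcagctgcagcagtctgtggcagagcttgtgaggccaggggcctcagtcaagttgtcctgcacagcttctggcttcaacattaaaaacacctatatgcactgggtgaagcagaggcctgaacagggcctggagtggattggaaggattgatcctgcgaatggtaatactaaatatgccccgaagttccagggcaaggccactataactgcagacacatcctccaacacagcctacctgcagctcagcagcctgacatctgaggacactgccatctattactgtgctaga
Ighv14-1: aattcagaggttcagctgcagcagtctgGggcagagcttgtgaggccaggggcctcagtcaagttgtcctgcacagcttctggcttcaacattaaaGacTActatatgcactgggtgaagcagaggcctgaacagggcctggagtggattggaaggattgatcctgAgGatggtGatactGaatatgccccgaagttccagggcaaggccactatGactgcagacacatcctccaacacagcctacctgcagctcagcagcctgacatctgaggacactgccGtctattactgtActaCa
Ighv14-2: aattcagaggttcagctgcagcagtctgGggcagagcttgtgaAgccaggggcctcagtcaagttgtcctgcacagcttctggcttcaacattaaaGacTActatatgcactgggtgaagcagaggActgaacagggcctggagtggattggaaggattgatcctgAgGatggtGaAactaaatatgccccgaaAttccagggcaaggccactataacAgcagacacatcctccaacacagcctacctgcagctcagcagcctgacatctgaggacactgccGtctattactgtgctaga
Ighv14-4: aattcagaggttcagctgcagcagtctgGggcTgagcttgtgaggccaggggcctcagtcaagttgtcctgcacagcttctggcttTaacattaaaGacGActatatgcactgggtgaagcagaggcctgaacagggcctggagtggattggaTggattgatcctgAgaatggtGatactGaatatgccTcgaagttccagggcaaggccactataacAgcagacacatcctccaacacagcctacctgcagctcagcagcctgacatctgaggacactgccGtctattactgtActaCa
The Igkv17 set lies on chromosome 6, plus strand, with Igkv17-127 at chr6:67861153-67861659 and Igkv17-121 at chr6:68036812-68037318. The segments differ at 9 of 353 coding bases, 6 of them in the stretch shown.
Igkv17-127: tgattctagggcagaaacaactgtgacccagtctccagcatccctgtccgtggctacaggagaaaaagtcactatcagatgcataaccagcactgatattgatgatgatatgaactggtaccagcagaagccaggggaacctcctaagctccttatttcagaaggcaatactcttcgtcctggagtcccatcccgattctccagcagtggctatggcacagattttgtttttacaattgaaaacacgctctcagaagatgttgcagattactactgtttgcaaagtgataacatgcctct
Igkv17-121: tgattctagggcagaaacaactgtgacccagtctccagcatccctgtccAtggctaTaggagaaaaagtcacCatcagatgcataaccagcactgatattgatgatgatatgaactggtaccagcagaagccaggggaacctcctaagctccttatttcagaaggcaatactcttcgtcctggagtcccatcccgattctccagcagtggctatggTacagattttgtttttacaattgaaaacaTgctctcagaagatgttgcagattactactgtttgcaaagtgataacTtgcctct
The last set is Igkv1-117 at chr6:68121046-68121827 and Igkv1-110 at chr6:68270485-68271267, also on the plus strand, which differ at 10 of 359 coding bases, all 10 in the stretch shown.
Igkv1-117: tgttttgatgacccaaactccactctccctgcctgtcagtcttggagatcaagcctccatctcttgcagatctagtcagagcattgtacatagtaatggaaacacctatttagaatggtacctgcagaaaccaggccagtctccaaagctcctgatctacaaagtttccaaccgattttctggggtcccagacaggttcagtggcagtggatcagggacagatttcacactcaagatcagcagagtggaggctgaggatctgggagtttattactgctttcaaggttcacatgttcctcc
Igkv1-110: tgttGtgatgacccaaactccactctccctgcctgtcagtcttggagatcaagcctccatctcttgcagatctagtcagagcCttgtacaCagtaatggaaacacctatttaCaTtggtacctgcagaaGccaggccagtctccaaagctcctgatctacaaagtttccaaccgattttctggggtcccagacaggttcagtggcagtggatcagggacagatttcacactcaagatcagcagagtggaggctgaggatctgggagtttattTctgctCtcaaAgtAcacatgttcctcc

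Of the 170 members with a measured identity, 93 had another segment at 95% identity or more, and the highest identity was 99.7% (Ighv1-71 with Ighv1-62-2). How reads that match several segments were counted is not given in the sources used here, so values of single members with such relatives are uncertain. By annotation 165 members are functional segments and 6 are pseudogenes. The 3 members nearest the minimum, Igkv2-107, Igkv14-130 and Igkv4-79, reached 10 in 3 samples each, with the lowest of those values at 10. Just outside it, the sample ranked after the 2 highest had 9 counts in Igkv4-69 and 8 in Igkv1-99 and Ighv2-6-8. A further 65 segments stayed below the minimum, and the highest single value among them was 105 in Igkv1-99. Of the members, 8 would not have met the minimum by their treated samples alone, so for them a lower treated level was partly built in.

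The normalised counts of a sample summed to 19.2 to 20.8 M, and the gaps between low values gave an estimated depth of 16 to 25.2 M reads. Day 4 was the shallowest group, at 16 to 17.8 M, and untreated marrow the deepest, at 21.6 to 25.2 M. Some libraries stood apart in single segments: both left-out segments were far lower in sample 2 of day 4 than in the other day 4 samples, and a few members were very high in samples 1 and 3 of day 11. How counts of called members moved without single libraries is given beside each count. Neutrophil markers of the marrow were abundant in all groups, at a summed 1466888 to 2006823 normalised counts over 10 genes, and none of the 8 tested erythroid markers was at 0.

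Heavy chain members together were near their untreated level at day 4 and lower on average at days 11 and 18. In untreated marrow the 90 heavy chain members summed to 5563, 7856 and 5992 normalised counts in samples 1, 2 and 3. At day 4 the sums were 6517, 6476 and 7686, at day 11 they were 4243, 2708 and 5982, and at day 18 they were 5995, 3108 and 3379. The groups overlapped at both late days, because sample 3 of day 11 and sample 1 of day 18 lay within the untreated range. The mean was 6470 ± 1219 (SD, n = 3) at day 0, 4311 ± 1638 at day 11, which is 66.6% of it, and 4161 ± 1594 at day 18, or 64.3%. Leaving out sample 2 of day 11 moved the log2 ratio of means from -0.59 to -0.34, and leaving out sample 3 moved it to -0.90. At day 18, leaving out sample 1 moved it from -0.64 to -1.0.

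Kappa members were likewise high in sample 3 of day 11 and sample 1 of day 18. They summed to 5469, 8697 and 6187 at day 0 and to 6402, 6766 and 8066 at day 4. At day 11 the sums were 3896, 2227 and 6765, and at day 18 they were 5151, 2496 and 3599. All day 18 samples were below all untreated samples, while sample 3 of day 11 was above 2 of them. The day 11 mean was 63.3% and the day 18 mean 55.3% of the untreated mean of 6784 ± 1695 (SD, n = 3). Without sample 3 of day 11 the log2 ratio at day 11 went from -0.66 to -1.15, and without sample 2 to -0.35.

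The 3 lambda members summed to 885, 1282 and 909 at day 0, 692, 1218 and 727 at day 4, 558, 445 and 587 at day 11, and 968, 471 and 537 at day 18. All day 11 samples were below all untreated samples, and sample 1 of day 18 lay inside the untreated range. The means at days 11 and 18 were 51.7% and 64.2% of day 0. The ratio of kappa to lambda sums was 6.59 ± 0.356 (SD, n = 3) at day 0, 8.63 ± 2.82 at day 4, 7.84 ± 3.34 at day 11 and 5.77 ± 0.804 at day 18, so the days overlapped. Sums over members were given no test, because members share cells and library. In bulk marrow, fewer cells of a type and less RNA per cell cannot be told apart.

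**Figure D1:**
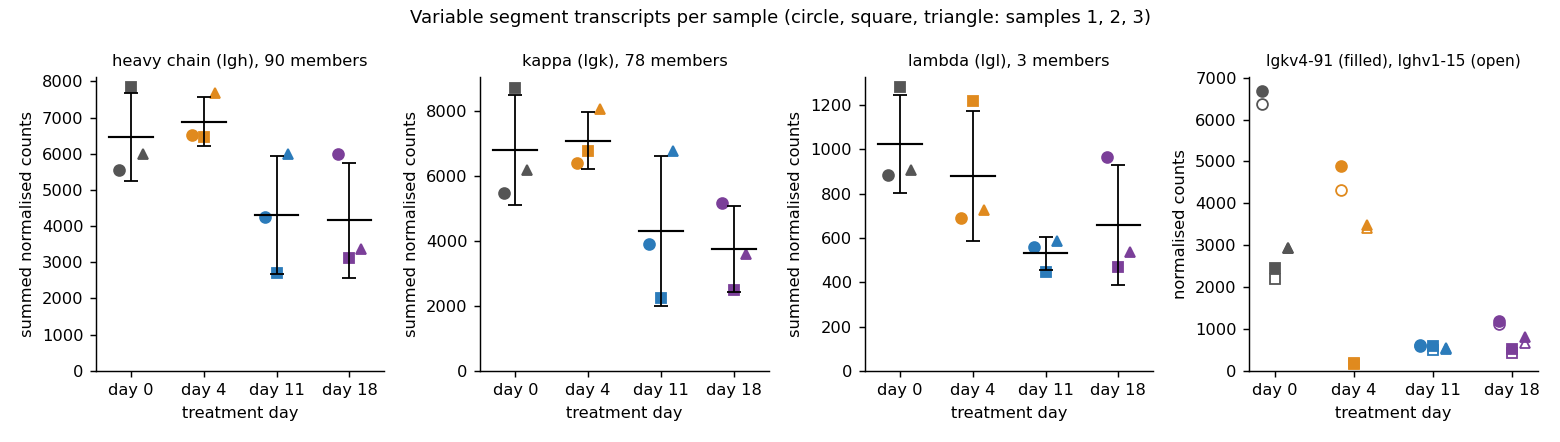
Summed normalised counts (vertical axes) of heavy chain, kappa and lambda members and of the left-out Igkv4-91 and Ighv1-15 in every sample, by treatment day (horizontal axes). Bars are the mean and SD of 3 samples in the first 3 panels; day 11 sample 3 (triangle) reaches 5982 in the heavy chain panel and 6765 in the kappa panel, inside the untreated range.

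Against untreated marrow, 19 of 171 members (11.1%) fell at day 11 and 0 rose. Calls rest on an adjusted p under 0.05 from limma over all 14883 genes tested, of which 2.12% were called lower and 3.2% higher in this comparison. The 19 were 9 heavy chain segments, 9 kappa segments and Iglv3. The median log2 change of the 171 members was -0.90 (quartiles -1.39 and -0.54) beside 0.00 over all genes tested, and 159 members had a value below 0, beside 49.5% of all genes. All day 11 samples were below all untreated samples in 57 members, where 12.3% of all genes tested showed this. The call count changed when single libraries were left out, which also left only 2 samples in a group. It was 12 without sample 2 and 10 without sample 3 of day 0. Without sample 1 of day 11 it was 11, and without sample 2 of day 11 it was 12. With the estimated depth as a covariate 8 members were called, and with only the 2 groups in the fit 34.

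At day 18, 18 of 171 members (10.5%) fell and 0 rose, where 3.91% of all genes tested were called lower and 5.29% higher. They were 9 heavy chain and 9 kappa segments. The median log2 change was again -0.90 beside 0.00 over all genes, and 157 members had a value below 0. All day 18 samples were below all untreated samples in 53 members, where 12.6% of all genes tested showed this. Both comparisons use the same untreated samples, so their likeness is not independent. The count was 9 without sample 2 of day 0, 35 without sample 1 of day 18 and 7 without sample 2 of day 18. It was 11 without the intensity trend and 9 with the depth covariate.

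**Figure D2:**
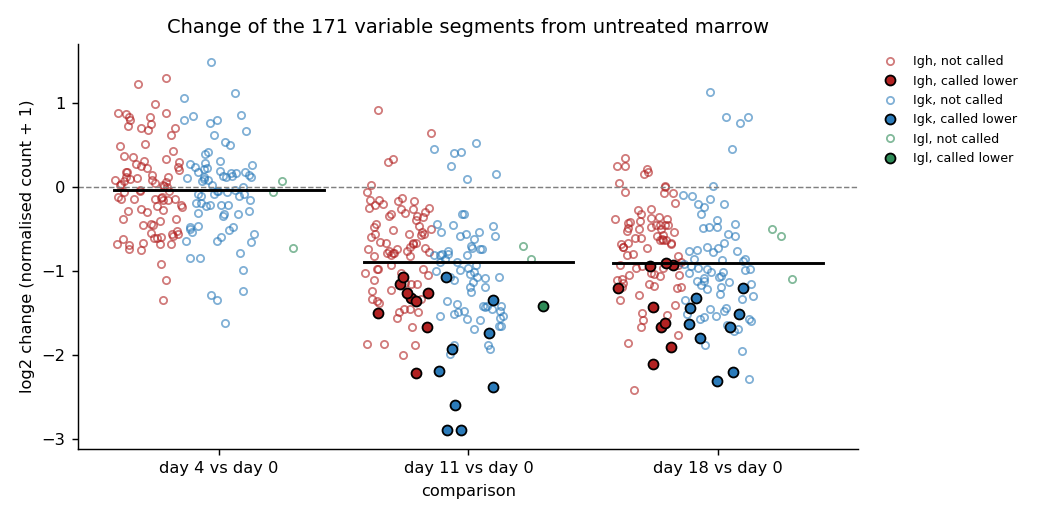
Log2 change from untreated marrow (vertical axis, log2 of normalised count plus 1) of each of the 171 members at days 4, 11 and 18, with filled points for members called lower and a bar at the median. The medians are -0.04, -0.90 and -0.90, and no filled point lies above 0.

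The Ighv14 family of heavy chain segments had 3 of its 4 members called lower at day 11, and its summed level was 33.6% of the untreated mean. Ighv14-3 stood at 72, 82 and 37 normalised counts in untreated samples 1, 2 and 3, at 130, 89 and 121 at day 4, at 8, 15 and 15 at day 11, and at 35, 12 and 16 at day 18. Every day 4 sample was above every untreated sample and every late sample was below. The log2 change of Ighv14-3 was 0.88 ± 0.39 (SE) at day 4, with an adjusted p of 0.222 in limma, and -2.21 ± 0.39 at day 11, with an adjusted p of 0.00417. At day 18 it was -1.62 ± 0.39 with an adjusted p of 0.0184, a call lost without sample 1 or 2 of day 0, without sample 2 of day 18 and in the fit of only 2 groups. Ighv14-2 fell from 51, 68 and 125 to 33, 29 and 31 at day 11 (log2 change -1.26 ± 0.30). Ighv14-4 fell from 37, 58 and 47 to 16, 13 and 28 (-1.32 ± 0.31). The day 11 samples of both lay below all their untreated samples, and each call was lost in 5 or more of the 22 alternatives. Ighv14-1, the least abundant member, was at 10, 19 and 14 before and 4, 5 and 11 at day 11, and its log2 change of -1.06 ± 0.43 did not pass the test.

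Both kappa segments of the Igkv17 family fell at day 11 and at day 18. Igkv17-127 was at 163, 138 and 199 in untreated marrow, 92, 84 and 99 at day 4, 22, 33 and 60 at day 11 and 99, 32 and 45 at day 18. Igkv17-121 was at 140, 161 and 153, then 75, 113 and 78, then 81, 30 and 36, then 67, 35 and 60. In both segments every treated sample was below every untreated sample, from day 4 on. The log2 change of Igkv17-127 was -2.19 ± 0.37 at day 11 (adjusted p 0.00336 in limma) and -1.64 ± 0.37 at day 18 (adjusted p 0.0137). That of Igkv17-121 was -1.74 ± 0.32 (adjusted p 0.00605) and -1.52 ± 0.32 (adjusted p 0.00924). At day 4 their log2 changes of -0.84 and -0.79 did not pass the test over all groups, and passed it only when the fit held just these 2 groups, with adjusted p of 0.0244 and 0.0439. The Igkv17-127 call at day 18 was lost without sample 3 of day 0 or without sample 2 of day 18.

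Igkv1-117 and Igkv1-110 were among the 5 kappa members with the highest mean count. Igkv1-117 was at 366, 567 and 345 at day 0, 321, 416 and 452 at day 4, 211, 125 and 163 at day 11, and 166, 177 and 197 at day 18. Igkv1-110 was at 432, 452 and 360, then 375, 343 and 369, then 244, 165 and 185, then 213, 107 and 195. Both late groups lay below all untreated and all day 4 samples in both segments. The log2 change of Igkv1-117 from day 0 was -1.35 ± 0.21 at day 11 (adjusted p 0.00157 in limma) and -1.21 ± 0.21 at day 18 (adjusted p 0.00228). The log2 change of Igkv1-110 was -1.08 ± 0.21 (adjusted p 0.00912) and -1.32 ± 0.21 (adjusted p 0.00149). All 4 of these calls held in every alternative fit.

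**Figure D3:**
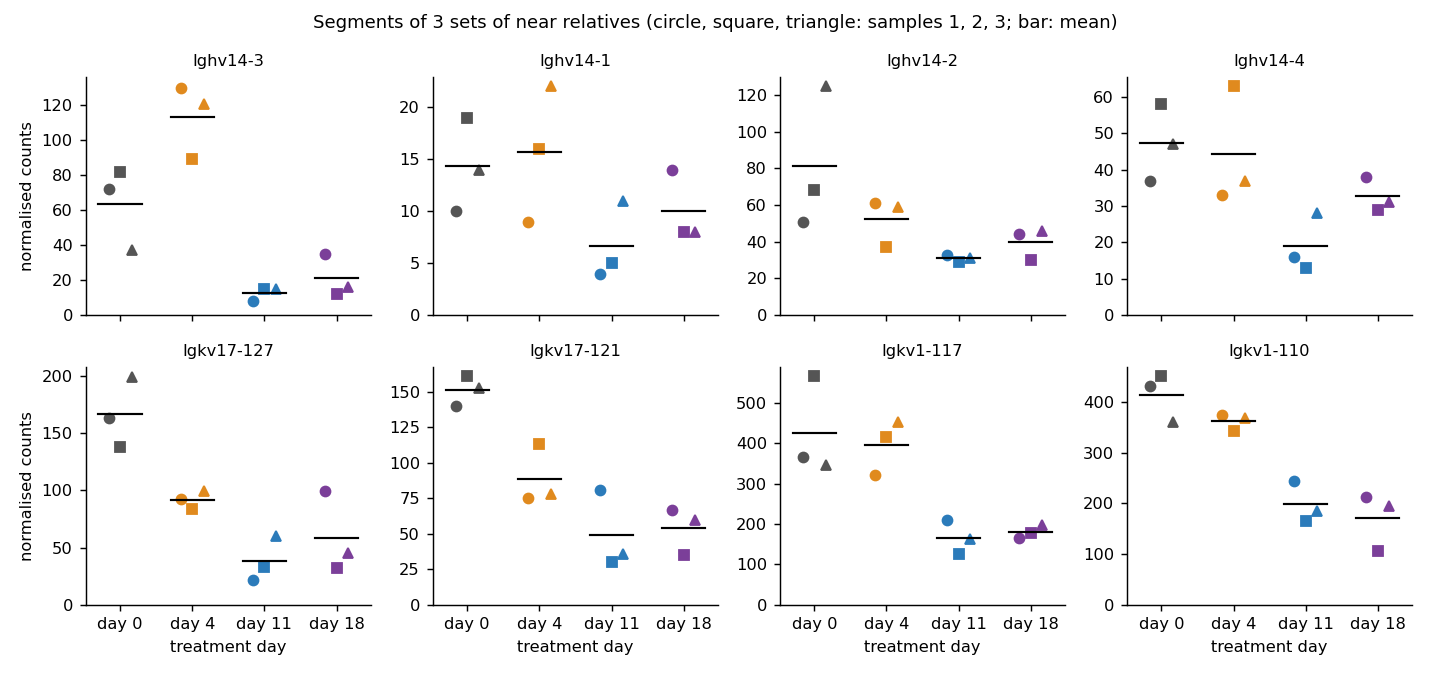
Normalised counts (vertical axes) by treatment day (horizontal axes) of the 4 Ighv14 segments, the 2 Igkv17 segments and Igkv1-117 and Igkv1-110, 1 panel each, with a bar at the mean of 3 samples. Ighv14-3 has its highest mean at day 4, and in the Igkv17 panels all treated samples lie below all untreated ones.

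Among the other heavy chain members, Ighv1-76 stood at 158, 192 and 141 in untreated marrow and 255, 152 and 219 at day 4. It was at 49, 61 and 82 at day 11 and 72, 106 and 84 at day 18. Both late groups were below all samples of both earlier groups, and the log2 change was -1.36 ± 0.23 at day 11 (adjusted p 0.00283 in limma) and -0.90 ± 0.23 at day 18 (adjusted p 0.0228). The day 18 call was lost in 4 of 22 alternatives. Ighv1-55 went from 143, 340 and 163 to 94, 96 and 92 at day 11 and 79, 70 and 71 at day 18. Its late samples were tightly grouped and below every untreated sample, with a log2 change of -1.43 ± 0.24 at day 18 (adjusted p 0.00222). Ighv1-52, which is 98.6% identical to Ighv1-61, went from 74, 94 and 128 to 43, 46 and 39 at day 11 and 67, 45 and 40 at day 18. Its calls at both days were lost in 4 or more alternatives. Ighv1-76, Ighv1-55 and Ighv1-52 are outside the rule for named members and were chosen after their values were seen.

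The abundant heavy chain members did not pass the test at any treated day. Ighv1-26 was the top heavy chain segment of all untreated samples, at 322, 447 and 376, and stood at 333, 389 and 434 at day 4, 227, 161 and 370 at day 11 and 360, 148 and 134 at day 18. Sample 3 of day 11 and sample 1 of day 18 were inside its untreated range, as in the heavy chain sum. Its log2 change was -0.66 ± 0.33 at day 11 (adjusted p 0.288 in limma) and -0.97 ± 0.33 at day 18 (adjusted p 0.0865). Ighv9-3 and Ighv3-6 had log2 changes of -0.79 ± 0.37 and -1.16 ± 0.38 at day 11, with adjusted p of 0.26 and 0.103. Ighv11-2, known for its use by B-1a cells that bind phosphatidylcholine together with Igkv14-126, was at 111, 259 and 109 at day 0, 216, 163 and 262 at day 4, 162, 26 and 141 at day 11 and 149, 149 and 193 at day 18. Igkv14-126 stood at 227, 440 and 170, then 392, 436 and 574, then 264, 36 and 334, then 172, 201 and 387. Both were lowest in sample 2 of day 11. Each treated group overlapped the untreated group in both segments, while all day 4 samples lay above all day 11 samples. The log2 changes at day 11 against day 0 were -0.79 ± 0.53 and -0.80 ± 0.63. Ighv7-1, the heavy chain segment of the T15 antibodies to phosphorylcholine, was at 257, 99 and 277, then 256, 67 and 174, then 137, 54 and 293, then 88, 299 and 125, with no day apart from the others.

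The kappa members with the largest falls at day 11 were low in count. Igkv3-5 was at 21, 30 and 54 in untreated marrow and at 4, 2 and 5 at day 11, and its log2 change of -2.90 ± 0.45 (adjusted p 0.00159 in limma) held in every alternative. Igkv14-130 was at 10, 7 and 13, and then at 2, 0 and 0, with a log2 change of -2.89 ± 0.59 (adjusted p 0.011). The pseudogene Igkv2-107 was at 10, 11 and 15, and then at 2, 4 and 0 (-2.38 ± 0.60, adjusted p 0.0357), a call lost in 9 of 22 alternatives. The treated samples of Igkv14-130 and Igkv2-107 alone would not have met the minimum, so their calls are no support for a fall of the members at large. Igkv4-50 went from 37, 48 and 25 to 8, 2 and 7 (-2.60 ± 0.69, adjusted p 0.0444), a call lost in 11 of 22 alternatives. Igkv6-17, chosen after its values were seen, went from 63, 86 and 74 to 16, 15 and 27 with a log2 change of -1.93 ± 0.41, a call lost in 6 of 22 alternatives.

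Among the members called at day 18 the largest fall was that of Igkv12-98, from 27, 17 and 87 to 5, 5 and 9 normalised counts, a log2 change of -2.31 ± 0.48 with an adjusted p of 0.00825 in limma. Igkv8-27 was next among them, with 99, 478 and 85 before and 60, 14 and 45 at day 18 (-2.20 ± 0.61, adjusted p 0.0373). Its untreated values were set apart by sample 2. The call was lost in 7 of 22 alternatives, among them the fit without that sample. Ighv1-58 went from 32, 61 and 77 to 34, 6 and 7 (-2.12 ± 0.59, adjusted p 0.0398), with sample 1 of day 18 inside the untreated range. Ighv10-3 went from 131, 67 and 46 to 37, 12 and 15 (-1.91 ± 0.45, adjusted p 0.0176), and Igkv10-94 from 55, 126 and 104 to 23, 18 and 38 (-1.80 ± 0.33, adjusted p 0.00393). The groups of both did not overlap. Ighv1-42 went from 31, 73 and 43 to 30, 12 and 7 (-1.67 ± 0.48, adjusted p 0.0427). The calls of Igkv12-98 and Igkv10-94 held in every alternative, those of Ighv1-58 and Ighv1-42 were lost in 10 or more of 22, and that of Ighv10-3 was lost in 4.

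The abundant kappa members other than Igkv1-117 and Igkv1-110 did not pass the test. Igkv10-96 was at 330, 392 and 425, then 392, 441 and 284, then 183, 106 and 380, then 277, 214 and 204, with a log2 change of -0.96 ± 0.33 at day 11 (adjusted p 0.115 in limma). Igkv1-135 was at 310, 400 and 303, then 239, 238 and 241, then 126, 113 and 403, then 272, 159 and 176, with -0.90 ± 0.36 (adjusted p 0.176). Sample 3 of day 11 was the exception in both, inside the untreated range of Igkv10-96 and just above that of Igkv1-135. In lambda, Iglv3 was at 314, 479 and 332, then 177, 302 and 205, then 183, 100 and 141, then 322, 163 and 97. Its day 11 samples were all below the untreated ones, with a log2 change of -1.42 ± 0.35 (adjusted p 0.0319), a call lost in 7 of 22 alternatives. Iglv1, the most abundant lambda segment, went from 387, 636 and 450 to 267, 298 and 319 at day 11, and its log2 change of -0.71 ± 0.25 did not pass the test (adjusted p 0.124). Iglv2 had a log2 change of -0.86 ± 0.40 (adjusted p 0.251).

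By place in the kappa locus, which spans chr6:67609713-70704177 beside Igkc at chr6:70726435-70726966, the 26 members farthest from the joining segments (Igkv19-93 to Igkv1-135) held 6 of the 9 kappa calls at day 11 and 7 of the 9 at day 18. The 26 members in the middle held 1 and 0, and the 26 nearest the joining segments held 2 at each day. The median log2 changes of the far, middle and near parts were -1.17, -0.80 and -1.18 at day 11. At day 18 they were -1.21, -0.86 and -1.07. The mean sums of these parts at day 0 were 3601, 1139 and 2044 normalised counts, so the far part was also the most abundant. The strand of a kappa segment decides whether it is joined by deletion or by inversion of the DNA between. Of 32 members on the plus strand 8 were called lower at day 11, with a median log2 change of -1.37. Of 46 on the minus strand 1 was called lower, with a median of -0.90. At day 18 the counts were 6 and 3, with medians of -1.12 and -1.0. No test of these splits was made. In the heavy chain locus, chr12:113578504-116000461, the 3 equal parts from the joining segments outward held 4, 1 and 4 calls at day 11 and 1, 3 and 5 at day 18.

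By family, the summed level at day 11 was lowest against day 0 in Igkv17 (27.5% of the untreated mean), Ighv14 (33.6%) and Igkv9 (36.8%, with 0 of 4 members called). The large Ighv1 family had 5 of 46 members called lower at day 11 and 6 at day 18, with sums of 64.0% and 62.5% of day 0. Families above their untreated mean at day 11 were Ighv12, Ighv9, Igkv11, Igkv19 and Igkv5, and in each the sum rested on samples 1 or 3 of day 11, described below for Ighv9 and Igkv5. At day 18 Ighv11 (102.5%) and Ighv15 (131%), of 1 member each, were the only families above their untreated mean. Igkv15, with the single segment Igkv15-103, was at 95.3% at day 4, 90.3% at day 11 and 95.3% at day 18. The most abundant members of the Ighv2, Ighv5, Ighv8, Igkv2, Igkv3, Igkv4, Igkv6, Igkv9 and Igkv12 families (Ighv2-2, Ighv5-17, Ighv8-8, Igkv2-109, Igkv3-2, Igkv4-55, Igkv6-23, Igkv9-120 and Igkv12-46) had log2 changes from -1.49 (Igkv6-23) to -0.13 (Ighv5-17) at day 11, and none passed the test.

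At day 4 the members were near their untreated level, and 0 of 171 were called by limma, where 2.24% of all genes tested were called lower and 2.4% higher. At an unadjusted p under 0.05 there were 6 lower and 6 higher, and the median log2 change was -0.04. Ighv1-53, chosen after its values were seen, was nearest to a rise: it stood at 78, 82 and 128 at day 0 and 385, 114 and 278 at day 4, with a log2 change of 1.29 ± 0.36 and an adjusted p of 0.0559. Sample 2 of day 4 was within its untreated range. Leaving out that sample gave an adjusted p of 0.0025, leaving out sample 3 of day 18 gave 0.0469, and quantile normalisation gave 0.0489. Without sample 3 of day 18, which takes no part in this contrast but in the shared spread, 2 members were called. These were Ighv1-53, which was higher, and Igkv4-80, which was lower (log2 change -1.62).

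Between treated days, 9 members were lower at day 11 than at day 4, and 0 were higher, where 0.954% of all genes tested were called lower and 0.726% higher. The fall was largest in Ighv14-3, at -3.10 ± 0.39 on the log2 scale with an adjusted p of 0.000875 in limma. Ighv1-19 stood at 424, 119 and 284 at day 4 and 101, 21 and 50 at day 11 (-2.33 ± 0.55, adjusted p 0.0499), against 150, 142 and 117 in untreated marrow. Ighv1-71 stood at 26, 22 and 56, then 7, 7 and 5 (-2.18 ± 0.44, adjusted p 0.0224). The day 4 and day 11 samples did not overlap in these 3 segments, but the Ighv1-19 call was lost in 14 of 22 alternatives and the Ighv1-71 call in 6. The count was 4 without sample 3 of day 4, 3 without sample 2 of day 11 and 17 without sample 1 of day 18, and it was 3 with no intensity trend, 17 in the fit of only 2 groups and 14 with the depth covariate.

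Between days 4 and 18, 18 members fell and 0 rose, where 2.7% of all genes tested were called lower and 2.77% higher. The largest were Ighv10-3, from 83, 177 and 101 to 37, 12 and 15 (-2.53 ± 0.45, adjusted p 0.00477 in limma), Ighv14-3 (-2.50 ± 0.39, adjusted p 0.00174) and Ighv8-5, from 55, 13 and 23 to 5, 1 and 9 (-2.43 ± 0.64, adjusted p 0.0398). The groups did not overlap in any of them, and the Ighv8-5 call was lost in 10 of 22 alternatives. The count was 8 without sample 3 of day 4 and 7 without sample 2 of day 18, 9 with no intensity trend and 11 in the fit of only 2 groups. Between days 11 and 18, 0 members were called by limma, where 0.00672% of all genes tested were called. At an unadjusted p under 0.05 there were 4 lower and 9 higher, and the median log2 difference was 0.10. Over the 4 time points 28 of 171 members passed the F-test (16.4%), where 9.47% of all genes tested did. That count was 17 without sample 3 of day 0, 16 without sample 3 of day 4, 18 without sample 2 of day 18 and 15 with no intensity trend.

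How evenly transcripts were spread over segments was described by the effective number of segments, the number of equally used segments that would give the same Shannon entropy. Functional members are close in length, with coding sequences of 338 to 394 bases, so their counts were set side by side without a length correction. In heavy chain the effective number was 61.3, 58.6 and 62.0 at day 0, 53.6, 59.5 and 58.1 at day 4, 47.5, 57.3 and 51.4 at day 11, and 56.6, 53.4 and 56.5 at day 18. In kappa it was 44.2, 42.6 and 48.7, then 42.7, 43.3 and 42.4, then 29.1, 45.2 and 35.0, then 48.0, 36.9 and 39.7. Transcripts were spread over many segments in every sample, and samples 1 and 3 of day 11 had the 2 lowest values of kappa and of heavy chain. Sample 2 of day 11, with the lowest sums, was inside the untreated range in kappa, at 45.2. In heavy chain its 57.3 was the highest of the late samples, and all late samples lay below all untreated ones.

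**Figure D4:**
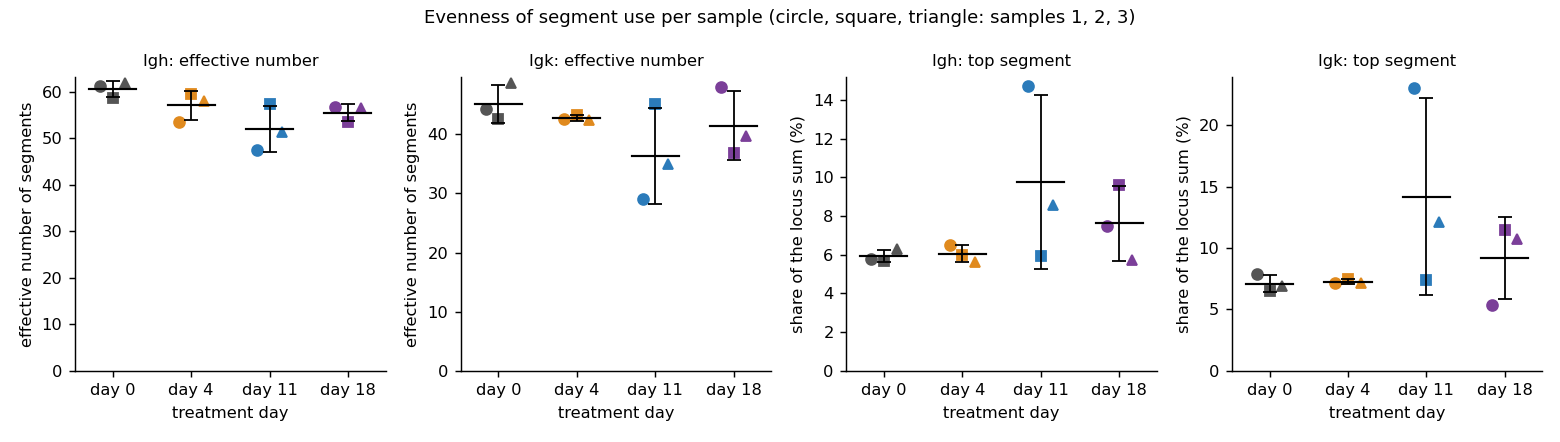
Effective number of segments and share of the locus sum held by its top segment (vertical axes; shares in percent) for heavy chain and kappa members in every sample, by treatment day (horizontal axes), with mean and SD of 3 samples. Sample 1 of day 11 (circle) has the lowest effective numbers, 47.5 and 29.1, and the highest top shares, 14.7% and 23.0%.

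In single samples some segments rose far above all others. Ighv9-4 was at 624 normalised counts in sample 1 of day 11 and at 53 or less in all other samples, and it made up 14.7% of that sample's heavy chain sum. In the same sample Igkv5-48 was at 897, which is 23.0% of the kappa sum, beside 563 in sample 3 of day 4 and 55 to 177 elsewhere. The constant region gene Ighg3, which encodes the IgG3 heavy chain, was at 1475 in that sample, at 347 in sample 3 of day 11 and at 8 to 192 in the others.

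Sample 3 of day 11 had the most high members of the late samples. Ighv1-61 was at 290 there and at 28 or less elsewhere, although its 98.6% identical relative Ighv1-52 was at 39. Igkv5-43 was at 545, Igkv5-45 at 409, Ighv1-78 at 322, Igkv19-93 at 817 and Ighv1-80 at 514. Igkv5-43 and Igkv5-45 are 98.6% identical, so reads of 1 may have been counted in the other. Ighv1-80 and Igkv5-45 were also high in sample 1 of day 18, at 449 and 190. In sample 3 of day 4, Ighv3-1 was at 339 and at 35 or less elsewhere.

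A member with at least 100 counts in its highest sample and at least 2 times the next sample occurred 15 times among the 171. Of these 4 were in sample 2 of day 0, 4 in sample 3 of day 4, 4 in sample 3 of day 11, and 1 each in samples 1 and 2 of day 4 and sample 1 of day 11. The 4 in sample 3 of day 11 include both Igkv5-43 and Igkv5-45, whose reads are hard to tell apart. No such member occurred in any day 18 sample. These members were chosen by their values, so they are given as a description with no test.

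**Figure D5:**
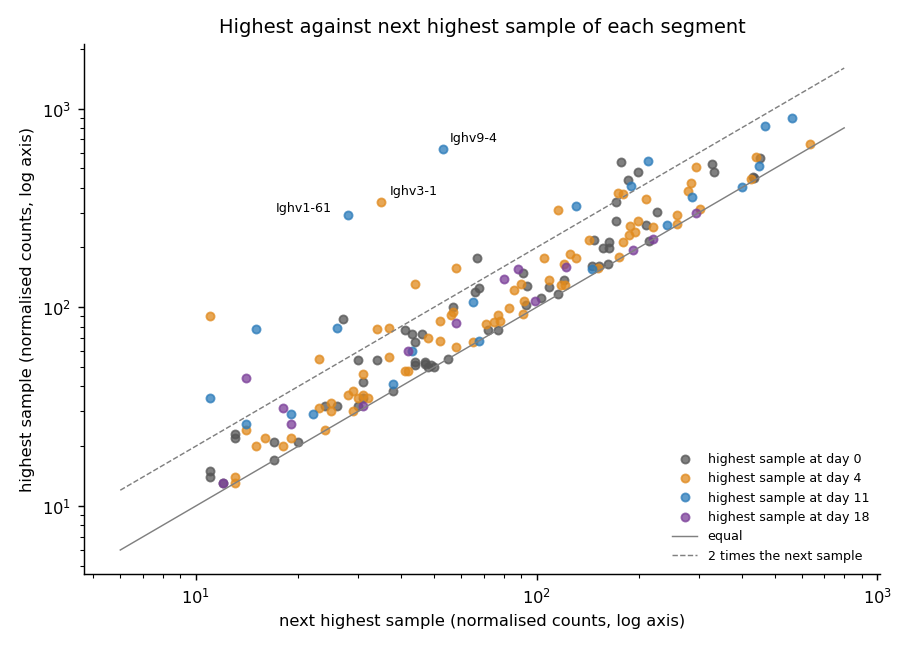
Highest against next highest sample of each of the 171 members (normalised counts, both axes logarithmic), coloured by the day of the highest sample, with lines for equality and for 2 times the next sample. Ighv9-4, Ighv3-1 and Ighv1-61 stand far above the lines, at 624, 339 and 290.

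Other B lineage transcripts were read beside the members. In the constant region list, 1 of 12 tested genes (Ighd) fell at day 4, 6 at day 11 and 5 at day 18, and 0 rose. Igkc, the kappa constant gene, was at 8226, 7367 and 6204 at day 0 and at 3118, 2715 and 4591 at day 11, with no overlap (log2 change -1.09, adjusted p 0.0128 in limma). Igkc is also transcribed with the left-out Igkv4-91, so its fall is not that of the members alone. Of the counts of Igkv4-91 and the kappa members together, Igkv4-91 held 22.0% to 55.0% at day 0. At day 11 it held 7.5% to 20.8%. Its part in the fall of Igkc was not tested. Ighd, which marks naive B cells, had the largest of the repeated falls, with log2 changes of -2.10 at day 11 (adjusted p 0.000106) and -1.75 at day 18 (adjusted p 0.000337). Ighm did not pass the test: it stood at 23729, 28025 and 23710 at day 0, 16982, 18052 and 25254 at day 11 and 27783, 19120 and 20704 at day 18, with log2 changes of -0.34 and -0.17. Sample 3 of day 11 and sample 1 of day 18 were the high ones for Ighm, as for the heavy chain members.

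Of 17 tested mature B cell genes 6 fell at day 4, 15 at day 11 and 14 at day 18, while of 12 tested B cell precursor genes 0, 2 and 0 did. The median log2 changes of the mature B cell genes were -0.44 at day 4 and -0.96 at day 11, and those of the precursor genes 0.10 and -0.16. The precursor genes called at day 11 were Pax5 (-0.76), which is in both lists, and Il7r (-0.51). Ebf1, Blnk, Rag1 and Vpreb3 had log2 changes of -0.38 to -0.24 that did not pass the test. Rag2 and Myb were slightly below 0, and Arpp21, Sox4, Dnajc2 and Cd93 were above 0, so the list did not move as 1. The falls at day 4, when no variable segment was called, included Fcer2a (-1.47 ± 0.24, adjusted p 0.0032 in limma) and Ighd (-1.16 ± 0.24, adjusted p 0.0144). Fcer2a, which encodes the IgE receptor CD23, went from 589, 1057 and 991 to 271, 324 and 331 at day 4, 123, 92 and 149 at day 11 and 143, 90 and 143 at day 18. Of the recombination genes, Rag1 and Rag2, which cut DNA at the segments, did not pass the test at any treated day, with log2 changes at day 11 of -0.25 and -0.08.

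Of 15 tested plasma cell genes 1 (Tnfrsf13b) fell at day 4, 3 fell and 1 rose at day 11, and 3 fell and 2 rose at day 18. Sdc1, which encodes CD138, fell by 0.88 on the log2 scale at day 11. All mice carried myeloma cells, and the part of those cells in the levels of plasma cell genes was not tested. Prdm1, which drives plasma cell differentiation and is also expressed by activated T cells, rose by 1.26. Of 13 tested regulators of immunoglobulin gene transcription 4 fell at day 11 (Pax5, Spib, Pou2f2 and Pou2af1) and 1 at days 4 and 18 (Pou2f2), and 0 rose. Pou2af1, the coactivator that works with octamer factors at variable segment promoters, had a log2 change of -0.61 at day 11 (adjusted p 0.0424 in limma).

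T cell transcripts moved the other way. Of 12 T cell core genes 3 rose at day 4, 11 at day 11 and 11 at day 18, and 0 fell. The list summed to 2641 to 4406 normalised counts at day 0, 4237 to 7041 at day 4, 10524 to 11419 at day 11 and 11115 to 15751 at day 18, and none of its genes was at 0 in any sample. Mature B cell genes summed to 51443 to 56728 at day 0, 40960 to 47553 at day 4, 33611 to 36049 at day 11 and 33665 to 43344 at day 18. Of 10 tested neutrophil genes 0 changed, and of 8 erythroid genes 2 fell at day 18. The part of these shifts in the results on variable segments was not tested. Rescaling to the total without any immunoglobulin gene gave 20 calls at day 11 and 22 at day 18.

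The left-out segments held more counts than any member in most samples. Igkv4-91 (chr6:68768555-68769103) was at 6687, 2450 and 2933 normalised counts at day 0, 4899, 155 and 3481 at day 4, 611, 584 and 550 at day 11 and 1195, 524 and 802 at day 18. Ighv1-15 (chr12:114657353-114657786) was at 6376, 2190 and 2924, then 4322, 196 and 3403, then 601, 495 and 524, then 1129, 435 and 662. Both were highest in sample 1 of day 0 and lowest in sample 2 of day 4, and all late samples lay below all untreated ones. Their log2 changes at day 11, -2.64 ± 0.91 and -2.68 ± 0.84, did not pass the test (adjusted p 0.117 and 0.0881 in limma). Neither heavy chain nor kappa sums of members were low in sample 2 of day 4, where both left-out segments were. Their nearest relatives did not share their levels: Ighv1-23, at 98.0% identity to Ighv1-15, had 0 to 6 counts in all samples, and the 6 segments nearest to Igkv4-91, at 87.0% to 89.0% identity, had at most 158.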

How the data were processed

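Bone marrow RNA of 12 samples was sequenced as pairs of 150 bp reads from a stranded mRNA kit, per the labels. Of software, the submitters' processing notes list featureCounts 1.4.6 of Subread, STAR 2.3.0 and limma, with the build GRCm38 and no role for any. The values deposited by the authors are normalised counts, treated as a score: whole numbers per gene, per the file headers, whose scaling and strand setting are not given in the sources used here. Reads of overlapping or antisense genes may therefore be mixed. Groups come from the treatment day in the labels, and replicates were numbered in the order of the samples.

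The fit took the 14883 genes that reached 10 in 3 or more samples and dropped the other 8251. Values were taken as log2 of the count plus 1 and fitted in limma 3.58.1 under R 4.3.3, as 1 linear model of 4 group means with a trend of variance on mean level; residual degrees of freedom were 8 and prior ones 5.73. The 6 comparisons of days and an F-test were two-sided, with Benjamini-Hochberg adjustment over all genes tested and a threshold of 0.05. A fold change on this scale understates that of low genes. The fit was tested on simulated data. Depth was estimated from the spacing of values up to 150 and rests on the counts being reads divided by 1 factor per sample. No pair among the 66 pairs of samples had equal values in more than 0.928% of 10460 genes, so none was a copy. Identity of coding sequences was measured with blastn 2.17.0 over at least 90% of the shorter sequence.

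The members and the 9 gene lists were chosen with earlier results of these data known. Members named are the 5 highest per locus, up to 6 largest called falls and rises against day 0, the top member of each family of 3 or more, up to 3 called per direction between treated days, the segments on either side of the minimum, and the 2 left out; any other is said to have been chosen after its values were seen. Of the listed genes, Ighe, Dntt, Xrcc5, Igll1, Vpreb1, Vpreb2, Erg, Akap12, Cr2, H2-Ob, Mzb1, Xbp1, Tnfrsf17, Eaf2, Irf8, Retnlg, Klf1 and Tfrc are not analysed here, and 1 gene of the recombination list is not reported here. Alternatives were other pseudocounts (0.1 and 5), filters, scalings, no trend, only the 2 groups compared, depth as a covariate, and leaving out each sample.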

Additional observations from a re-analysis of the deposited data

Results flagged for a closer look

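Changes from untreated marrow that differed between treated days were picked out. The change differed between day 11 and day 4 in 9 members, all lower at day 11, and between day 18 and day 4 in 18 members, all lower at day 18, by the limma contrast of the treated days themselves with an adjusted p under 0.05. Between day 11 and day 4 the log2 difference was -2.33 for Ighv1-19, -2.18 for Ighv1-71 and -3.10 for Ighv14-3. Between day 18 and day 4 it was -2.53 for Ighv10-3, -2.50 for Ighv14-3 and -2.43 for Ighv8-5. Each of these 5 segments had a higher mean at day 4 than at day 0. They were chosen as the largest falls from day 4, so a high day 4 value was partly built in. No member was called higher at day 4 than at day 0 in the main fit. The calls of Ighv14-3 in both contrasts and of Ighv10-3 at day 18 held in all alternatives. Groups of 3 samples are too small to tell whether a single sample is an outlier, so each sample was only left out in turn.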

How the results depend on the processing

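Counts of called members depended on the fit more than on scaling. Quantile normalisation gave 1 call at day 4 against day 0, and fits of only the 2 groups compared gave 2 at day 4, 34 at day 11 against day 0, 17 between days 11 and 4 and 11 between days 18 and 4. The depth covariate gave 8 calls at day 11 and 9 at day 18 against day 0, and 14 between days 11 and 4. Without the intensity trend there were 11 at day 18 against day 0, 3 between days 11 and 4, 9 between days 18 and 4, and 15 over the time points. The cause of these shifts was not tested. Leaving out each sample in turn gave 0 to 2 calls at day 4, 10 to 24 at day 11 and 7 to 35 at day 18 against day 0, 3 to 17 between days 11 and 4, 7 to 26 between days 18 and 4, 0 between days 18 and 11, and 16 to 40 over the time points. Of 64 calls of a member in a comparison 20 held in every alternative, and 294 of 1406 alternative fits of called results lost the call. No called result changed direction. A rise was called only for Ighv1-53 at day 4 (3 alternatives) and Igkv4-80 between days 18 and 4 (1 alternative). Locus sums kept their direction at days 11 and 18, with log2 ratios over left-out samples of -0.90 to -0.34 and -1.0 to -0.47 in heavy chain, -1.15 to -0.35 and -1.16 to -0.63 in kappa, and -1.05 to -0.76 and -1.03 to -0.45 in lambda. No paired analysis was made, because the labels give no pairing between samples of different days. Members near 10 counts are limited by depth, since day 4 was the shallowest group and untreated marrow the deepest.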

Other observations

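Some heavy and light chain segments had a like order of samples. These were noticed in the values and are given as a description, with no test. Ighv7-1 and Igkv15-103 were both high in samples 1 and 3 of day 0 (257 and 277 for Ighv7-1, 235 and 278 for Igkv15-103), in sample 3 of day 11 (293 and 359) and in sample 2 of day 18 (299 and 286), and both were low in sample 2 of day 11 (54 and 71). Ighv5-16 and Igkv1-88 were both highest in sample 2 of day 4, at 238 and 508, and next highest in sample 3 of day 18, at 194 and 293. Ighv1-80 was at 514 in sample 3 of day 11 and 449 in sample 1 of day 18, and Igkv4-55 at 260 and 242 in these samples, although Igkv4-55 also reached 217 in sample 1 of day 4. Bulk RNA does not show which heavy and light chain transcripts come from the same cell.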
